A study of Urocitellus parryii with 44 samples.

Results

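The pyruvate dehydrogenase complex and the 2-oxoglutarate dehydrogenase complex were examined in brown adipose tissue of arctic ground squirrels through every probe whose only gene symbol was Dld, Dlst, Ogdh, Pdha1, Pdhb, Dlat, Pdhx, Pdk1, Pdk2 or Pdk4. The probes were chosen by symbol, and the list of genes was drawn up with the difference between torpor and summer already known. They number 24 of the 38400 probes on 4 membranes and cover all 10 genes. The groups were 5 squirrels (Urocitellus parryii) in winter torpor and 3 squirrels active in summer, sampled in August. Total RNA of the fat of each animal, labelled with 33P, was hybridised to the 4 mouse cDNA membranes, each of 9600 probes and known as MA07, MA08, MA10 or MA11. Torpid animal 5 and summer animals 1 and 2 had their RNA split and measured in duplicate, and the 11 columns of each membrane were reduced to 8 animals by averaging duplicates on the log2 scale. Season and activity state changed together in this design and cannot be told apart. The labels used here state neither sex nor age.

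Both complexes are large assemblies of the mitochondrial matrix that remove carbon dioxide from a 2-oxo acid and pass the remaining acyl group to coenzyme A. An E1 enzyme takes the substrate, an E2 enzyme carries the acyl group on a swinging lipoyl arm, and an E3 enzyme, dihydrolipoamide dehydrogenase, reoxidises the arm and makes NADH. Pyruvate dehydrogenase links glycolysis to acetyl-CoA, and 2-oxoglutarate dehydrogenase is a step of the tricarboxylic acid cycle that brown fat mitochondria run while they make heat. Kinases of the Pdk family phosphorylate the E1 alpha subunit and switch pyruvate dehydrogenase off, which spares glucose when fat is the fuel.

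Values below are log2 of a spot's intensity over the median of its column, so that 0 is the median spot of that column and 1 unit is a doubling. Differences are torpor minus summer from a limma fit, given with their standard error (SE). Of the 37848 probes tested on the 4 membranes, 117, or 0.309%, passed an adjusted p of 0.05 (limma, Benjamini-Hochberg over all probes), 98 of them higher in torpor. With cyclic loess scaling 63 passed, 46 of them higher. Among the 24 probes of the complexes 3 passed, all higher in torpor: Dld on MA08 and MA11 and Dlst on MA08. In 6 of the 24 every torpid animal lay above every summer animal, as in 4.37% of all tested probes (8.50% when either direction is counted). The difference was positive for 15 of 24 probes, against 18927 of all 37848, and the median difference was 0.14 against 6.49e-05 for all. Because these genes were chosen with this comparison in view, the counts describe them and support nothing further. In pieces of tissue such as these, fewer cells of a type and less RNA per cell cannot be told apart.

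**Figure D1:**
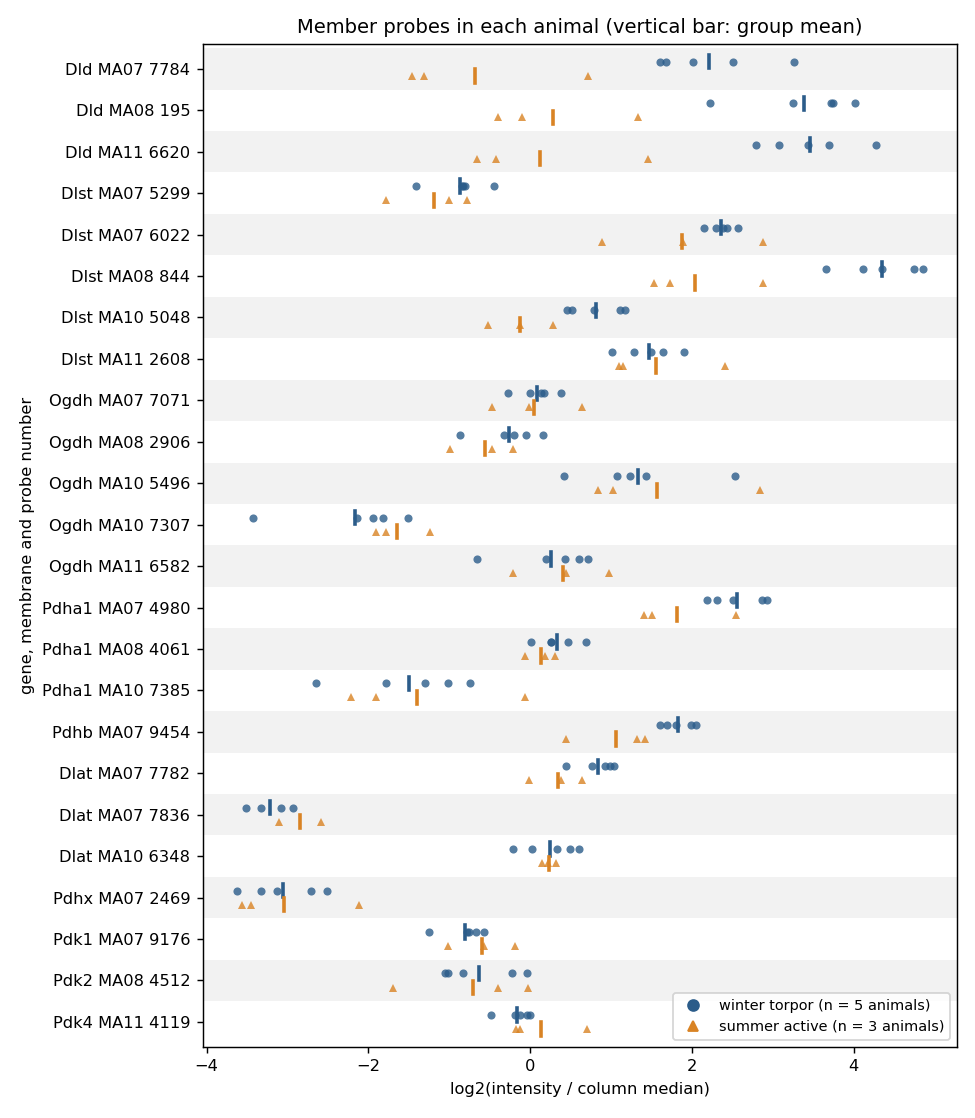
Log2(intensity / column median) of the 24 probes in each animal, with torpor as circles (n = 5) above summer as triangles (n = 3) and a vertical bar at each group mean. The groups are clear of each other for the 3 Dld probes, Dlst on MA08 and MA10, and Pdhb on MA07, and they overlap for the other 18 probes.

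Dld encodes the E3 subunit that both complexes share, and it had the widest gap between the groups of the 10 genes. On MA08 (probe 195) the torpid animals 1 to 5 had 3.72, 4.02, 3.25, 3.75 and 2.22, against 1.33, -0.10 and -0.40 in summer animals 1 to 3. The lowest torpid value, that of animal 5, was still above the highest summer value, that of animal 1. The difference was 3.11 ± 0.45 (SE), or 8.65-fold, from a mean of 3.39 ± 0.71 (SD, n = 5) in torpor and 0.28 ± 0.92 (SD, n = 3) in summer.

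On MA11 (probe 6620) the same Dld clone gave 3.44, 3.69, 3.08, 4.28 and 2.79 in torpor, against 1.46, -0.43 and -0.66 in summer. The groups were again apart, and the order of the summer animals was the same. Here the difference was 3.33 ± 0.46, or 10.04-fold, the 10th highest among the 37848 probes. The 8 animals' values on the 2 membranes differed from each other by a root mean square of 0.36 and by 0.57 at most. These 2 probes are spots of 1 clone and so are not separate evidence on the gene.

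A different Dld clone, on MA07 (probe 7784), gave 2.02, 1.60, 2.51, 3.26 and 1.68 in torpor, against 0.72, -1.46 and -1.32 in summer. All torpid animals lay above all summer animals here too, with summer animal 1 the nearest. The difference was 2.90 ± 0.52 (95% interval 1.74 to 4.06), with an adjusted p of 0.059 by limma. Summer animal 1 was the highest of its group with all 3 probes. Without it the Dld differences were 3.60, 3.64 and 3.99 on MA07, MA08 and MA11. The probes next in index to the Dld probes had differences of -0.44 and -0.43 on MA07, 0.18 and 0.04 on MA08, and 0.39 and 1.29 on MA11; any part of neighbouring spots in these values was not tested.

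Dlst encodes the E2 core of the 2-oxoglutarate complex, and its 5 probes, all of different clones, did not give a single picture. The brightest, on MA08 (probe 844), had 4.75, 4.35, 4.11, 4.86 and 3.65 in torpor, against 2.87, 1.73 and 1.53 in summer. The groups did not overlap, and torpid animal 5 and summer animal 1 were again the nearest to the other group. The difference was 2.30 ± 0.35, or 4.93-fold. On MA10 (probe 5048) the groups were also apart, at 1.12, 0.46, 0.52, 0.79 and 1.17 in torpor against -0.13, 0.28 and -0.53 in summer, with a difference of 0.94 ± 0.38. The other 3 Dlst probes overlapped between groups, with differences of 0.48 ± 0.36 and 0.32 ± 0.28 on MA07 and -0.09 ± 0.33 on MA11. The MA11 probe was bright, at a mean signal percentile of 83.3 on its membrane. Its 95% interval, -0.80 to 0.63, does not reach the interval of the MA08 probe, 1.53 to 3.08.

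Several of the calls were lost when 1 animal was left out, which also makes its group smaller. Without torpid animal 3 the differences on MA08 were 3.15 for Dld and 2.36 for Dlst, against 3.11 and 2.30 with all animals. The part of the smaller group in the lost calls was not tested. With 1 animal left out at a time, the Dld probe on MA11 passed in 7 of 8 fits, and its adjusted p was 0.062 without torpid animal 2. The Dld probe on MA08 passed in 3 of 8, with adjusted p of 0.066, 0.075, 0.056 and 0.057 without torpid animals 1 to 4 and 0.050 without summer animal 2. The Dlst probe on MA08 passed in 2 of 8, with adjusted p of 0.077, 0.081, 0.062 and 0.066 without torpid animals 1 to 4, 0.052 without summer animal 2 and 0.054 without summer animal 3. Cyclic loess gave this Dlst probe an adjusted p of 0.091. Across all 18 alternatives the differences stayed between 2.77 and 3.64 for Dld on MA08, 2.91 and 3.99 for Dld on MA11, and 1.93 and 2.72 for Dlst on MA08. Some of these alternatives change only the probes kept, the prior or the adjustment, and so leave a difference as it was.

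Ogdh encodes the E1 enzyme of the 2-oxoglutarate complex, the subunit that binds the substrate, and none of its 5 probes separated the groups. The brightest, on MA10 (probe 5496), had 0.42, 1.23, 1.08, 1.43 and 2.54 in torpor, against 0.84, 1.02 and 2.84 in summer. The spread inside each group covered most of the range, and the highest value of all was that of summer animal 3. The difference was -0.23 ± 0.52, with a 95% interval of -1.32 to 0.86. Of the other Ogdh probes, the MA07 probe gave 0.03 ± 0.26 and the MA08 probe 0.30 ± 0.27. The second MA10 probe gave -0.53 ± 0.44 and the MA11 probe -0.15 ± 0.35. The median of the 5 was -0.15, against 0.48 for Dlst and 3.11 for Dld. The 95% intervals of all 5 Ogdh probes ended at 0.89 or lower, and those of all 3 Dld probes began at 1.74 or higher.

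**Figure D2:**
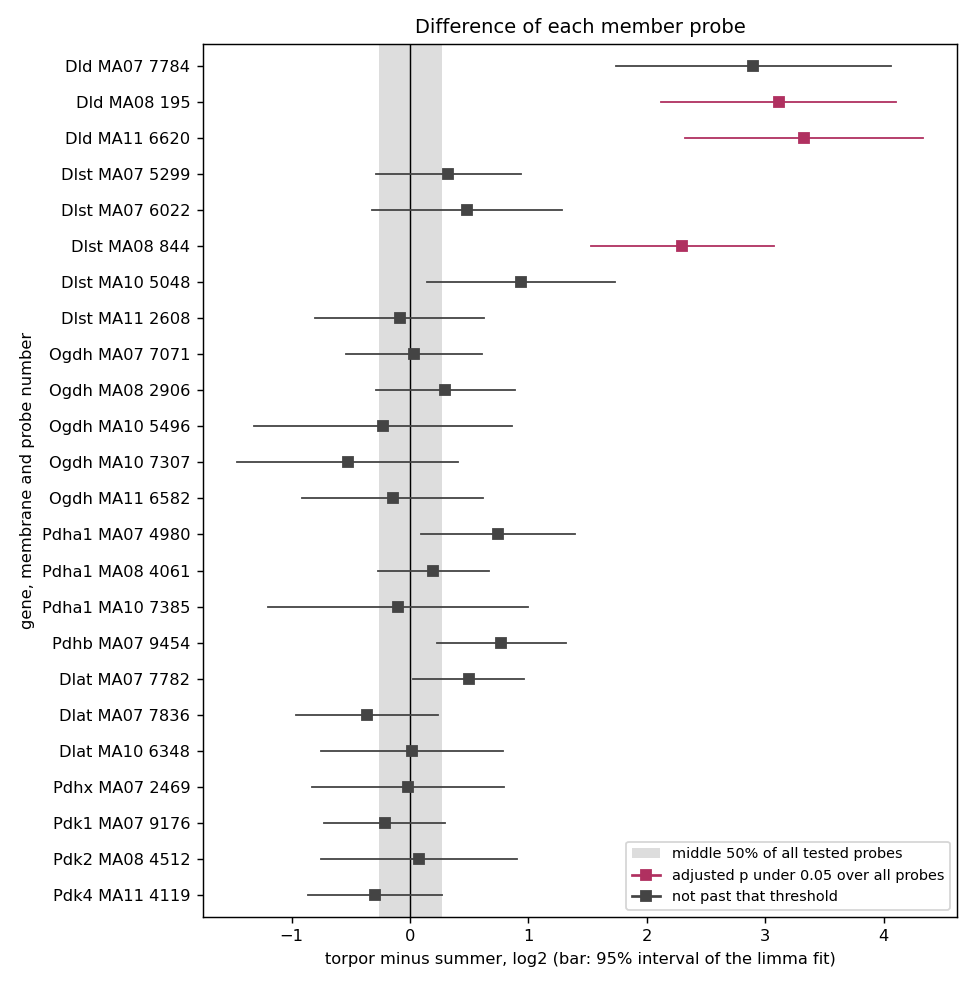
Torpor minus summer difference (log2) of each of the 24 probes with its 95% interval from the limma fit, over a grey band that holds the middle 50% of all tested probes (-0.26 to 0.27). The 3 Dld probes and the Dlst probe on MA08 stand at 2.30 or more, and the other 20 probes lie between -0.53 and 0.94.

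The E1 enzyme of pyruvate dehydrogenase is built from an alpha subunit, encoded by Pdha1 and the target of the Pdk kinases, and a beta subunit, encoded by Pdhb. The single Pdhb probe, on MA07 (probe 9454), had 2.05, 1.81, 1.70, 1.99 and 1.60 in torpor, against 1.32, 0.44 and 1.41 in summer. The groups did not overlap, and torpid animal 5 and summer animal 3 were the nearest to each other. The difference was 0.77 ± 0.24, or 1.71-fold (95% interval 0.23 to 1.31), with an adjusted p of 0.26 by limma. It was 0.46 without summer animal 2, which had the lowest value.

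The brightest Pdha1 probe, on MA07 (probe 4980), had 2.86, 2.50, 2.18, 2.93 and 2.31 in torpor, against 1.50, 1.40 and 2.54 in summer. Summer animal 3 lay among the torpid animals, and the other 2 summer animals lay below them. The difference was 0.74 ± 0.29, of much the same size as for Pdhb. The duplicates of summer animal 1 on this probe differed by 1.32, at 0.84 and 2.16, which is more than the difference between the groups. The other Pdha1 probes gave 0.20 ± 0.21 on MA08 and -0.10 ± 0.52 on MA10, and their groups overlapped.

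Dlat encodes the E2 core of pyruvate dehydrogenase, and Pdhx the protein that docks the E3 enzyme to that core. The brightest Dlat probe, on MA07 (probe 7782), had 1.04, 0.45, 0.77, 0.92 and 0.99 in torpor, against 0.38, -0.01 and 0.64 in summer. The groups overlapped by torpid animal 2 and summer animal 3 alone, and the difference was 0.50 ± 0.21. A Dlat probe on MA10 gave 0.02 ± 0.36. The third, on MA07 (probe 7836), was among the dimmest spots, at a mean signal percentile of 2.98, and had values in only 4 torpid and 2 summer animals, with a difference of -0.36 ± 0.26.

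The single Pdhx probe, on MA07 (probe 2469), was also very dim, at a percentile of 4.48. It had -3.13, -3.32, -3.62, -2.51 and -2.71 in torpor, against -3.56, -3.45 and -2.11 in summer. The groups overlapped throughout, and the difference was -0.02 ± 0.36. No measure of background was at hand, so these dim spots cannot be told from unspecific signal.

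Over the 8 probes of the subunits that belong to pyruvate dehydrogenase alone, 5 differences were positive, the median was 0.11 and the largest was 0.77. Over the 10 probes of Dlst and Ogdh, 6 were positive and the median was 0.17. With the 3 Dld probes and the called Dlst probe set aside, the median of the remaining 20 probes was 0.03, and 11 of them were positive.

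The kinases Pdk1, Pdk2 and Pdk4 had 1 probe each, and none separated the groups. Pdk4, the kinase best known for its induction by fasting and by fatty acids in other mammals, had -0.13, -0.19, -0.48, -0.04 and -0.0037 in torpor on MA11 (probe 4119), against 0.70, -0.18 and -0.13 in summer. The highest value was that of summer animal 1 and the lowest that of torpid animal 3, with the other 6 animals between -0.19 and -0.0037. The difference was -0.30 ± 0.26, with a 95% interval of -0.86 to 0.27, and it was -0.01 without summer animal 1. A rise of the size seen for Dld lay outside the interval of this 1 probe. How well the mouse probe reads squirrel Pdk4 was not tested, so the interval sets no limit on the transcript itself.

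Pdk1, on MA07 (probe 9176), had -0.76, -0.67, -1.26, -0.58 and -0.78 in torpor, against -0.19, -0.57 and -1.01 in summer. The groups overlapped, and the difference was -0.22 ± 0.23. Pdk2, on MA08 (probe 4512), had -1.05, -0.83, -0.04, -0.23 and -1.01 in torpor, against -1.69, -0.03 and -0.40 in summer. These groups overlapped throughout as well, with a difference of 0.07 ± 0.38, and the duplicates of summer animal 1 were 1.64 apart. The Pdk1 and Pdk2 probes lay at signal percentiles of 29.6 and 28.4, and that of Pdk4 was near the middle at 48.0.

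The split RNAs give the measurement error of these probes without use of the comparison between groups. Over 69 pairs of duplicates of the 24 probes, the median gap was 0.33, against 0.39 for all probes of the membranes. It was 0.26 for torpid animal 5, 0.40 for summer animal 1 and 0.62 for summer animal 2. The widest gap, 2.39, was that of summer animal 2 with the dimmer Ogdh probe on MA10. For Dld the gaps ran up to 1.37, with summer animal 2 on MA11, where the duplicates were -1.11 and 0.26. In 6 of the 24 probes the difference between torpor and summer was larger than the probe's own widest gap between duplicates. These were the 3 Dld probes, Dlst on MA08, Pdhb, and the bright Dlat probe on MA07. The share over all probes was not counted, so 6 of 24 only describes these probes. With the first duplicates alone the difference of Ogdh on MA08 was 0.72, and with the second alone it was -0.13.

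**Figure D3:**
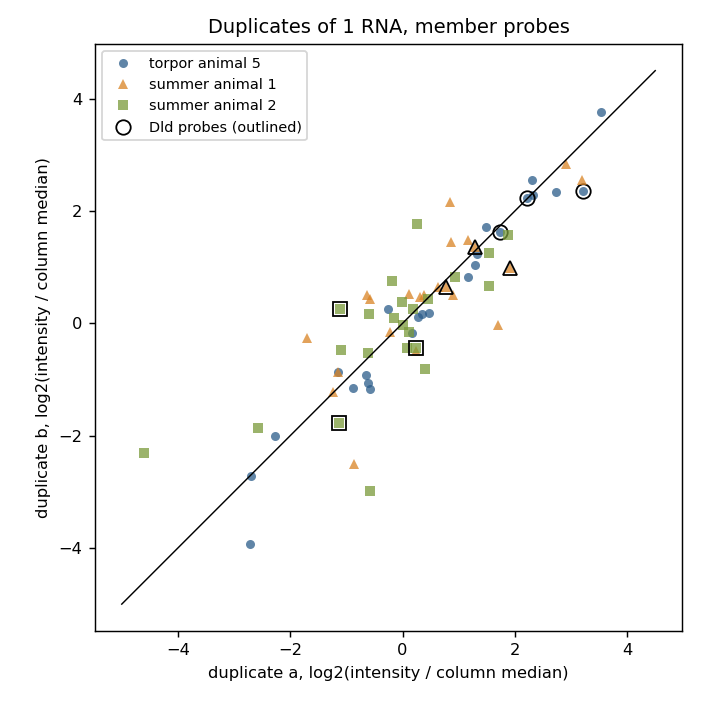
Duplicate b against duplicate a, both as log2(intensity / column median), for the probes of the complexes in the split RNAs of torpid animal 5 (circles), summer animal 1 (triangles) and summer animal 2 (squares), with Dld outlined and a line at equality. Points lie close to the line for torpid animal 5, with a median gap of 0.26, and farther from it for summer animal 2, at 0.62.

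Likeness between probes was measured as the root mean square difference over the 8 animals between log2 profiles, each centred on its own median; a smaller value means a closer match, and all probes share the same 8 RNAs. Against the brightest Dld probe, on MA08, the Dld probe on MA11 ranked 2nd of 34504 probes (0.42), Dlst on MA08 5th (0.51) and Dld on MA07 14th (0.64). The next of the complexes was Pdhb, far behind at rank 1076 (1.35). Among probes of other genes the closest were those of Ghitm (0.41), an inner mitochondrial membrane protein, Fam71e1 (0.45), Marchf5 (0.47), a ubiquitin ligase of the outer mitochondrial membrane, Cycs (0.56), which is cytochrome c, and Laptm4a (0.60), a lysosomal membrane protein. The median over 22521 such probes was 1.76. These 5 probes had differences between 2.47 and 3.26, as a match to Dld in size requires. Those of Ghitm, Marchf5 and Cycs were on MA08 like the Dld probe itself, that of Fam71e1 on MA10 and that of Laptm4a on MA11. Any part of a shared membrane in the likeness was not tested.

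The probes closest to Pdk4 were those of Slc25a44 (0.06), a mitochondrial carrier of branched-chain amino acids, Lamc1 (0.07), a laminin chain, Zfp248 (0.11), Dnajc10 (0.11), a disulfide reductase of the endoplasmic reticulum, and Slc12a5 (0.12), a potassium chloride cotransporter, against a median of 0.51. All 5 were highest in summer animal 1. Pdk1 ranked 126th of 34504 against Pdk4 (0.20), while Pdk2 ranked 31360th (0.83). Many probes vary little over the animals, so small values are easily reached here.

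**Figure D4:**
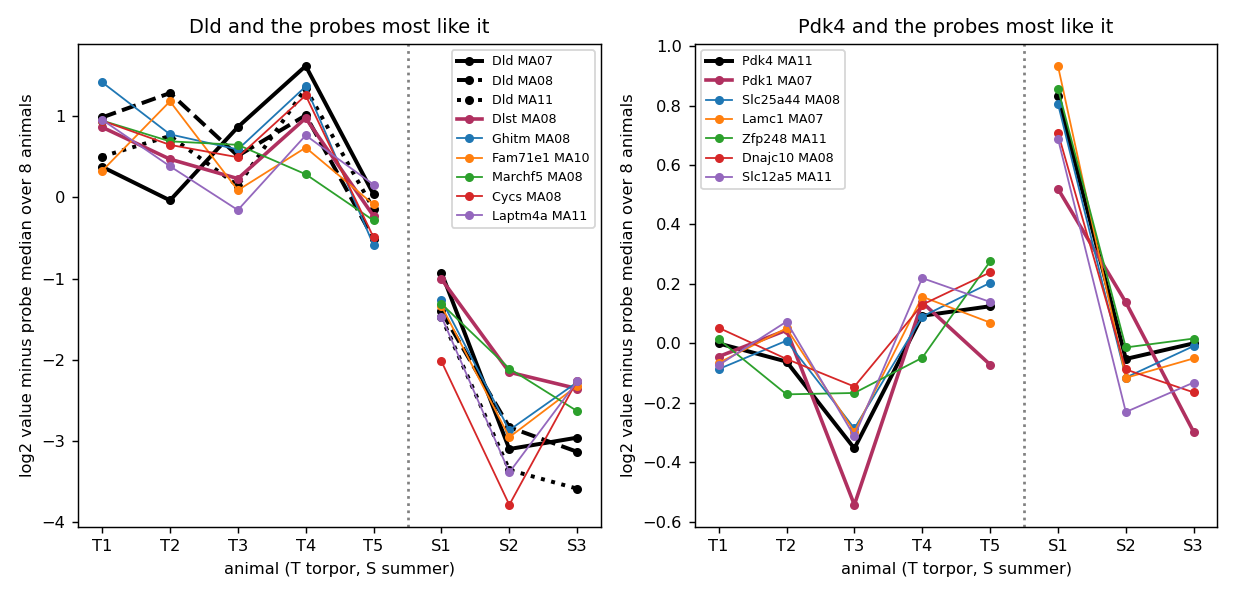
Log2 value minus the probe's median over 8 animals, by animal (T1 to T5 in torpor, S1 to S3 in summer), for Dld with Dlst on MA08 and the 5 closest probes of other genes (left) and for Pdk4 with Pdk1 and its 5 closest (right). On the left every line is lower in the summer animals than in torpor, and on the right every line is highest in summer animal 1.

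The other genes of the pathway were 36, of which 27 had a tested probe and 9 had none with that single symbol. Each was read by its brightest probe. By limma 0 of 27 passed the adjusted p of 0.05, 8 of 27 had an unadjusted p under 0.05, against 11.6% of all probes, and the median difference was 0.12. The share over all probes includes dim ones and several probes of a gene, so it is not a like comparison for brightest probes. Sucla2, a subunit of succinyl-CoA ligase, the enzyme that takes the product of the 2-oxoglutarate complex, is the exception when every probe is counted: 4 of its 6 probes passed, between 3.96 and 4.36, while its brightest gave 1.40 ± 0.38 and the remaining probe, on MA10, -0.68 ± 0.44.

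Among kinases and phosphatases the differences of all 4 brightest probes were negative, but 3 of the 4 genes also had a positive probe. Of the 4, 2 were positive with the first duplicates alone, and 1 was positive with cyclic loess, without summer animal 3, and without torpid animal 1 or 4. Pdk3, another kinase of pyruvate dehydrogenase, was at 1.07 ± 0.40 (SD, n = 5) in torpor and 2.09 ± 0.15 (SD, n = 3) in summer, a difference of -1.02 ± 0.37 (SE) with no overlap. Its other 2 probes gave -0.63 and 0.26, the first on a dim spot. Pdp2 and Pdp1, the catalytic subunits of the phosphatases that switch the complex back on, were at -0.34 ± 0.20 and -0.08 ± 0.21. Pdpr, a regulatory subunit, was at -0.04 ± 0.18. The second probes of Pdp1 and Pdpr gave 0.31 and 0.09.

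Among genes of pyruvate supply and use all 6 measured differences were positive, with a median of 0.25. Of the 6, 4 were positive without summer animal 2, and 5 with the first duplicates alone and without summer animal 1 or torpid animal 2. Ldhb and Ldha, the heart and muscle type subunits of lactate dehydrogenase, were at 2.06 ± 0.56 and 1.11 ± 0.28. The groups overlapped for Ldhb, and its second probe gave 0.33 ± 0.34. Slc16a1, a lactate and pyruvate transporter of the plasma membrane, was at 0.34 ± 0.20 (its 3 probes -0.45 to 0.44), Pcx, pyruvate carboxylase, at 0.15 ± 0.21, and Mpc1, a subunit of the mitochondrial pyruvate carrier, at 0.15 ± 0.39. Pkm, pyruvate kinase, was at 0.12 ± 0.33, and its 4 probes ran from -0.89 to 0.38. For lipoate and thiamine supply only Lias, which makes the lipoyl arm, had a probe, at 0.52 ± 0.47.

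The other enzyme systems that use the Dld protein are the branched-chain 2-oxo acid dehydrogenase, the glycine cleavage system and the 2-oxoadipate dehydrogenase. Of their 8 measured genes 5 had positive differences, with a median of 0.08, and 4 with a median of -0.05 under cyclic loess. With the first duplicates alone 3 of 7 were positive, with a median of -0.02. Gcsh, the lipoyl carrier of glycine cleavage, was at 0.41 ± 0.16 with no overlap between groups, and its second probe at -0.17. Bckdhb, an E1 subunit of the branched-chain complex, was at -1.11 ± 0.51 on a dim probe with values in 4 torpid and 2 summer animals. Bckdk, the kinase of that complex, was at -0.39 ± 0.33, and its 3 probes ran from -0.69 to 0.33. Gldc, the glycine decarboxylase, was at 0.49 ± 0.46 (its 3 probes -0.07 to 0.49).

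Among partners of the products, Suclg1, the alpha subunit of succinyl-CoA ligase, was at 1.11 ± 0.33, and its 5 probes ran from -0.09 to 1.57. Cs, citrate synthase, was at 0.41 ± 0.42 and Crat, carnitine acetyltransferase, at -0.23 ± 0.44. Nnt, which passes hydride from NADH to NADP, was at 0.27 ± 0.29, and the mitochondrial deacylases Sirt3 and Sirt5 at -1.04 ± 0.31 and -0.32 ± 0.19. The other 3 Sirt3 probes were positive, up to 0.46, and the second Sirt5 probe gave 0.53.

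**Figure D5:**
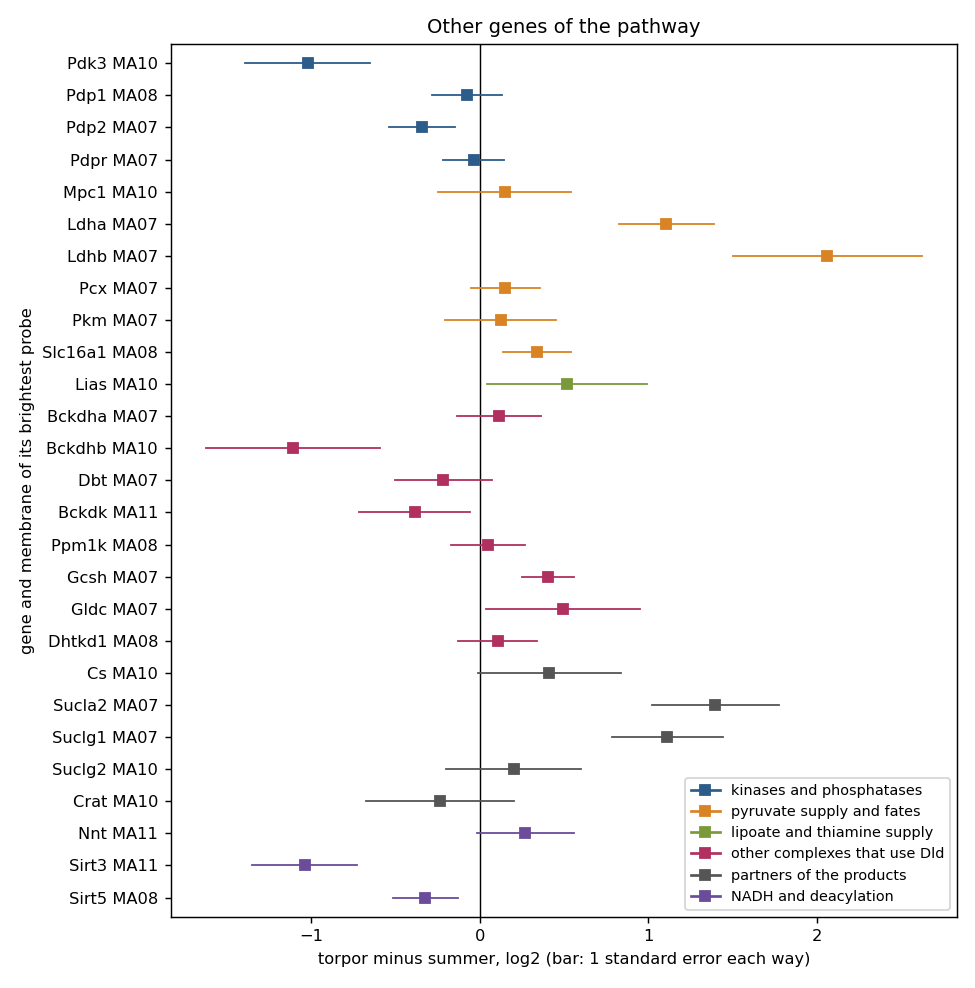
Torpor minus summer difference (log2) of the brightest probe of each of the 27 measured genes of the pathway, coloured by role, with bars of 1 standard error each way. Ldhb stands highest at 2.06 and Bckdhb lowest at -1.11, and the 4 kinase and phosphatase genes lie below 0 as plotted (2 to 4 of them over the alternatives).

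The label of brown adipose tissue was checked on 10 markers of brown adipocytes, of which 6 had a probe with that single symbol, Cidea, Dio2, Prdm16, Ppargc1a, Elovl3 and Bmp8b; Ucp1, Fabp4, Adipoq and Plin1 could not be read. None was at 0 or below the 10th signal percentile, but most spots pass that bar, so this check cannot decide the label. Dio2 was dim, at percentile 12.1. Of the 6 differences 5 were negative and 1 positive, with a median of -0.51. The summed linear level of the 6 markers was 8.29 to 12.0 in torpor against 11.3 to 18.4 in summer. Summed muscle markers (6 of 12 measured) were 82.6 to 101 in torpor against 135 to 162 in summer, most of it Tnnc2, and white adipocyte markers (4 of 5) 16.7 to 34.9 against 56.3 to 76.2, most of it Agt and Psat1. These 2 sums did not overlap between groups and were lower in torpor, while Dld and the MA08 Dlst probe were higher. Each gene entered by its brightest probe. All 4 white adipocyte differences were negative, with Lep at -0.09. Over all their probes, Agt ran from -1.997 to 0.013 and Psat1 from -1.58 to 0.105. Of the muscle markers Actn3 was at 0.97, and the other 5 were negative. Both sums thus rest on few probes, and their part in the differences was not tested. Summed immune (23.1 to 29.9 against 17.2 to 36.8), endothelial (2.94 to 5.18 against 2.77 to 4.52), erythroid (3.03 to 9.87 against 5.14 to 10.1) and nerve markers (35.9 to 71.6 against 19.6 to 50.8) overlapped.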

How the data were processed

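The deposited values are intensity on a linear scale; the median is 1 in each of the 44 columns (empty cells ranked lowest), as checked on the values, so the authors had scaled each column by it. How images were read and background was treated is not given in the sources used here. Values were taken to log2 with empty cells as missing, and duplicates of an RNA were averaged. The limma package (3.58.1, R 4.3.3) was run membrane by membrane (lmFit and eBayes, two-sided) on probes measured in 2 or more animals per group, with Benjamini-Hochberg adjustment over all 37848 tested probes; 552 were not tested. The fit was tested on simulated data, with independent normal noise for each probe and a known shift. That simulation holds no effect shared by an animal or an array, so it does not cover such effects. Precision is limited by the number of arrays and of animals, 5 in torpor and 3 in summer. The median standard error was 0.29.

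Symbols came from the platform annotation (25070 probes with 1 symbol, 941 with several, 12389 with none); probes with several were not used. The probes are of mouse, and 9 of the 10 symbols match the squirrel's RefSeq annotation (all but Dlst). Values in every animal are given for the brightest probe of each gene (highest mean signal percentile), for every called probe, and, chosen after their values were seen, for Dld on MA07 and Dlst on MA10. The genes, the lists and the tests were chosen with earlier results of these data known. Alternatives covered scaling, a floor at the 10th percentile, dim probes (under percentile 20), empty cells, the prior, the adjustment, duplicates, a replicate block, and each animal left out. No sequences were at hand for these probes.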

Additional observations from a re-analysis of the deposited data

How the results depend on the processing

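The count of called probes over all membranes, 117, was 63 with cyclic loess, 194 without dim probes, 228 with a trend and robust prior, and 176 and 38 with the first or second duplicates alone. With 1 animal left out it ran from 17 (without torpid animal 2) to 347 (without summer animal 1), and it was 45, 50 and 60 without torpid animals 1, 3 and 4. The median difference over the probes of the complexes, 0.14, was 0.35 with the first duplicates and 0.29 with 1 probe per gene, when 6 of 10 differences were positive; with 1 animal left out it ran from 0.12 to 0.34, the highest without summer animal 3. Of the pathway genes 0 passed, and 0 to 1 with 1 animal left out (Ldhb, without summer animal 3, at an adjusted p of 0.041 by limma). The animal numbers gave little sign of pairing the samples. Deviations of same-numbered animals had correlations of 0.02, 0.0073 and 0.0076, against -0.017 to 0.0093 for animals of different numbers. Pairing that touches few probes was not tested. With the number as a replicate block 32 probes passed, both called Dld probes among them. The Dlst probe on MA08 then had an adjusted p of 0.054 by limma. Over the single probes, 420 of 426 recomputed differences moved by less than the spread between animals. The 6 that moved more were of Ogdh and Pdha1 on MA08 and of the dim Dlat and Pdhx probes. The 420 include fits that changed only the probes kept, the prior or the adjustment, where a difference could not move. No called difference changed sign. The causes were not tested. No measure of signal over background was at hand, which limits what the dim probes of Pdhx and Dlat can show.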

Other observations

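The order of the animals inside each group was read over the 23 probes of the complexes with values in all 8 animals. Torpid animal 4 had the highest torpid value in 10 of 23 probes, or 43.5%, against 19.3% over all probes with values in all torpid animals. Summer animal 1 had the highest summer value in 11 of 23, or 47.8%, against 30.4% of all. The lowest torpid value was spread over the animals, with 5 probes each for animals 1, 2, 3 and 5 and 3 for animal 4. Several of these probes share a gene or a clone, so the counts are not of independent measurements. In the torpid group no value of the 24 probes stood apart from the others by Dixon's test; the nearest was torpid animal 3 with Pdk1, at -1.26 beside -0.78.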
